A study of Homo sapiens with 12 samples.

Results

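Transcripts of 47 genes that respond to stalled replication forks, repair DNA by homologous recombination, remove crosslinks through the Fanconi anaemia pathway, or excise uracil and mispaired bases were followed in the human lung adenocarcinoma line A549. The genes were taken by symbol from a deposited table of 61541 Ensembl genes, and each of the 47 symbols matched 1 gene of the table. All 47 passed the filter on low counts and were among the 16768 genes tested. The series held 12 RNA sequencing libraries in 4 groups of 3, each from cells sampled 14 days after transduction and grown in DMEM with serum. Lone control cells carried a non-targeting guide (gNTC1), and lone knockout cells had TYMS, the thymidylate synthase gene, disrupted by Cas9 (TS-KO in the labels). The remaining groups were co-cultured control and co-cultured knockout cells, both with the same guides as their lone counterparts. Per the series text, the knockout cells of the co-culture grew beside parental A549 cells and their proliferation was restored. The labels do not name the partner of the control cells, and they do not say whether partners were separated before RNA was taken, whether knockout cells were 1 clone, or whether replicates were separate cultures. The p-values below therefore measure the spread between these libraries, which may be technical.

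As background, thymidylate synthase makes the thymidylate that DNA synthesis uses. When it is lacking, forks slow and stall, and uracil is built into DNA in place of thymine. ATR, recruited to single-stranded DNA by ATRIP and switched on by TOPBP1 and the 9-1-1 clamp, then activates CHEK1, while ATM and CHEK2 answer double-strand breaks. BRCA1, BRCA2 and the strand exchange factors protect and rebuild broken forks, the Fanconi core complex ubiquitinates FANCD2 and FANCI at crosslinks, and the glycosylases UNG, SMUG1 and TDG cut uracil or thymine from DNA.

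Library totals ran from 14921371 to 35723762 counts. Values below are CPM, counts scaled to a common library size by TMM, differences are log2 fold changes, each fold change has its standard error (SE), and genes counted as called had an adjusted p-value under 0.05 in edgeR's quasi-likelihood test across all 16768 genes. TYMS read 90.3 to 101 CPM in the 6 control libraries, 20.3 to 21.4 in the lone knockout and 10.7 to 11.4 in the co-cultured knockout. Each library thus matched its label as control or knockout. TYMS did not separate the co-cultured from the lone control (log2 fold change -0.03, SE 0.106). The 7 epithelial and A549 markers summed to 6490 to 15900 CPM in every library, mostly from KRT8 and KRT18, against at most 24.3 CPM for fibroblast, 6.23 for leukocyte and 2.74 for endothelial markers. The epithelial markers themselves differed between groups: by log2 fold change in the lone knockout, EPCAM (-7.41, mean 0.62 against 104 CPM) and KRT19 (-2.77) fell, while AKR1B10 (2.19) and AKR1C1 (2.03) rose, with 6 of the 7 called alone and all 7 in co-culture. Their part in the differences below was not tested. The libraries also differed in how their counts followed the GC content of transcripts. The rank correlation, over 16505 genes, of GC content with a library's deviation from its group mean was 0.753 in co-cultured knockout replicate 2 and -0.772 in replicate 3 of the same group. In the other groups it ran from -0.633 to 0.599 (lone control), -0.486 to 0.59 (co-cultured control) and -0.558 to 0.545 (lone knockout). Counts of calls that rest on the co-cultured knockout are given with and without its replicate 3, and with some single genes. Counts are also given after a per-library correction for GC content.

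Levels per transcript length, as RPKM (CPM per kilobase of exon) averaged over the 12 libraries, ran from 0.0867 for BRCA2 to 196 for H2AX, with a median of 2.21. After H2AX came UNG at 55.6 RPKM, PARP1 at 39.9, FANCG at 28.8, TIMELESS at 27.4 and UBE2T at 22.5. The kinases ATR and ATM, at 0.402 and 0.178 RPKM, were among the least abundant transcripts for their length.

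In the lone knockout against the lone control, 19 of the 47 genes were called, 5 higher and 14 lower. The checkpoint kinases ATM and ATR, the 9-1-1 clamp subunit HUS1, the nuclease MRE11 and the Fanconi ubiquitin ligase FANCL rose. The genes that fell were led by FANCE, RAD54L, CHEK2, H2AX, FANCG and TIMELESS, each with a log2 fold change below -1. Of all genes tested, 56.6% were called, 28.0% higher and 28.6% lower, so a call as such did not set these genes apart: 29.8% of the 47 were lower and 10.6% higher. Their median log2 fold change was 0.00 against 0.09 over all genes. Of the 19 calls, 11 held in each of the 20 alternatives that refitted the counts: ATM and HUS1 among the genes that rose, and TIMELESS, CHEK2, RAD54L, FANCA, FANCE, FANCG, SMUG1, PARP1 and H2AX among those that fell.

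**Figure D1:**
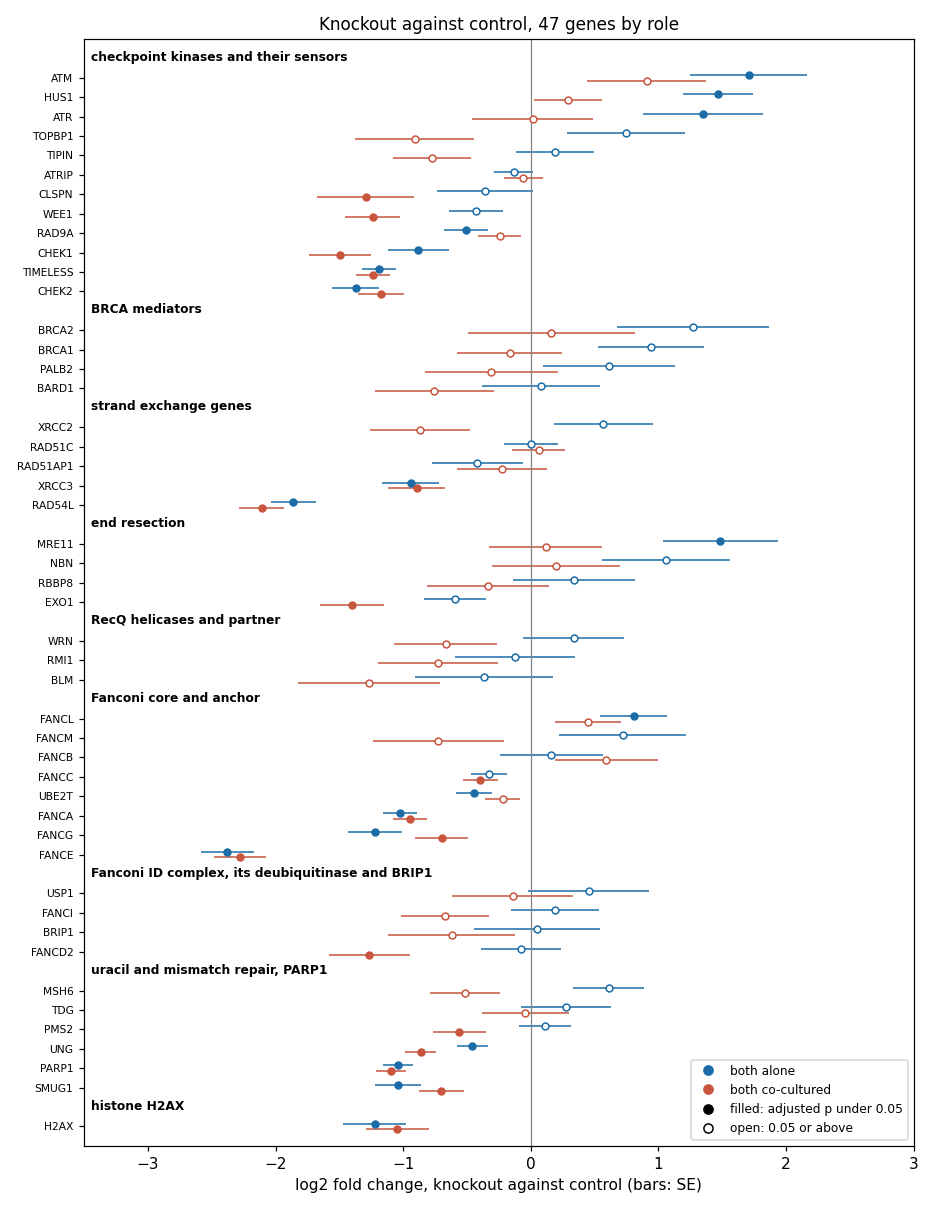
Log2 fold change of knockout against control for the 47 genes, grouped by role, alone (blue) and in co-culture (red). Bars are the SE and filled points have an adjusted p-value under 0.05. Filled points to the right of 0 occur only for the lone comparison (ATM, HUS1, ATR, MRE11 and FANCL), and 12 genes are filled to the left of 0 in both.

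Among the 12 checkpoint genes, 3 rose and 4 fell in the lone knockout. ATM, the kinase that answers double-strand breaks (ENSG00000149311, chr11:108222484-108369102, plus strand), read 4.03, 1.79 and 2.73 CPM in the lone control and 11.9, 9.61 and 6.33 in the lone knockout. It read 2.02, 2.03 and 1.1 CPM in the co-cultured control and 2.98, 1.37 and 5.34 in the co-cultured knockout. All 3 lone knockout libraries stood above all 3 lone controls, and of the co-cultured knockout only replicate 3 exceeded all 6 controls. The log2 fold change in the lone knockout was 1.71 (SE 0.458, adjusted p = 0.0066). ATR, the kinase of stalled forks (ENSG00000175054, chr3:142449235-142578826, minus strand), read 5.33, 3.63 and 2.79 CPM in the lone control and 12.7, 9.91 and 7.30 in the lone knockout. In co-culture it read 3.86, 3.41 and 2 CPM in the control and 2.93, 1.07 and 5.37 in the knockout. The lone groups did not overlap and the co-cultured groups did, with a log2 fold change of 1.35 alone (SE 0.470, adjusted p = 0.026). That call did not hold when lone control replicate 2 (adjusted p = 0.078) or 3 (0.106), or lone knockout replicate 1 (0.0915) or 2 (0.0537), was left out. HUS1, a clamp subunit that marks stalled forks, went from 3.91 ± 1.07 to 10.8 ± 0.698 CPM (SD, n = 3 in each group), a log2 fold change of 1.47 (SE 0.274, adjusted p = 0.000566). A pseudogene, EIF2AK1P1, overlaps 2048 bases of ATR exons on the other strand, and the strand setting of the counting is not stated.

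CHEK2, the kinase that ATM activates (ENSG00000183765, chr22:28687743-28742422, minus strand), moved the other way. It read 18.2, 17.2 and 16.7 CPM in the lone control, 6.22, 7.22 and 6.69 in the lone knockout, 19.2, 16.8 and 16.0 in the co-cultured control and 7.24, 6.44 and 9.33 in the co-cultured knockout. Every knockout library lay below every control library, with a log2 fold change of -1.37 alone (SE 0.184, adjusted p = 3.95e-05) and -1.18 in co-culture (SE 0.181, adjusted p = 0.000139). CHEK1, the kinase that ATR activates, fell from 19.6 ± 1.82 to 10.6 ± 1.04 CPM alone (log2 fold change -0.88, adjusted p = 0.00715). TIMELESS, a fork protection factor, fell from 221 ± 27.1 to 96.7 ± 1.84 CPM (-1.19, adjusted p = 7.65e-06), while its partner TIPIN was not called (0.19, adjusted p = 0.615). RAD9A, another clamp subunit, was called lower at -0.51 (adjusted p = 0.0225), and this call turned to 0.19 (adjusted p = 0.185) after the GC correction. It was also lost without lone control replicate 2 (adjusted p = 0.0708), lone control replicate 3 (0.0643) or lone knockout replicate 1 (0.0944). ATRIP, TOPBP1, CLSPN and WEE1, the kinase that holds CDK1 inactive, were not called alone.

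None of the 4 BRCA mediators was called in any comparison. All 4 had positive log2 fold changes in the lone knockout, from 0.08 for BARD1 (-0.56 after the GC correction) to 1.27 for BRCA2, and all 4 had negative ones between the co-cultured and the lone knockout, from -0.74 to -1.75. BRCA2, a mediator of homologous recombination (ENSG00000139618, chr13:32315474-32400266, plus strand), read 1.36, 0.554 and 0.765 CPM in the lone control and 3.13, 1.64 and 1.64 in the lone knockout. In co-culture it read 0.712, 0.536 and 0.489 CPM in the control and 0.302, 0.179 and 1.46 in the knockout. The lone groups did not overlap (adjusted p = 0.084), and in co-culture replicate 3 of the knockout stood above all controls and the other two below them. BARD1, the partner of BRCA1 (ENSG00000138376, chr2:214725646-214809711, minus strand), read 4.90, 4.80 and 3.77 CPM in the lone control, 6.43, 4.08 and 3.65 in the lone knockout, 4.99, 6.20 and 3.26 in the co-cultured control and 2.03, 1.1 and 5.45 in the co-cultured knockout. Its groups overlapped throughout.

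Of the 5 genes of strand exchange, RAD54L and XRCC3 fell both alone and in co-culture. RAD54L, a motor protein that acts on DNA during strand exchange (ENSG00000085999, chr1:46247688-46278473, plus strand), read 22.4, 28 and 30 CPM in the lone control, 29.9, 25.9 and 21.8 in the co-cultured control, 7.11, 7.42 and 7.61 in the lone knockout. The co-cultured knockout read 5.82, 5.84 and 6.31 CPM. The 6 knockout values kept within 5.82 to 7.61 CPM, with no overlap with the controls. The log2 fold change was -1.86 alone (SE 0.175, adjusted p = 1.7e-06) and -2.11 in co-culture (SE 0.176, adjusted p = 6.39e-07), and LRRC41 on the opposite strand shares 806 bases of its exons. XRCC3, a strand exchange factor, fell from 65.4 ± 13.9 to 34.1 ± 4.63 CPM alone (-0.94, adjusted p = 0.00289), a call not kept after the GC correction (adjusted p = 0.0539). KLC1 on the opposite strand overlaps 5756 bases of XRCC3 exons, so reads of the pair cannot be told apart if strand was not used. XRCC2, another such factor (ENSG00000196584, chr7:152644779-152676165, minus strand), read 8.74, 4.37 and 3.44 CPM in the lone control, 7.01, 6.93 and 5.91 in the co-cultured control, 9.10, 8.32 and 7.06 in the lone knockout. In co-cultured knockout cells it read 2.72, 2.15 and 6.01 CPM. It was not called in any comparison. RAD51C and RAD51AP1 were not called either.

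Among the 4 resection genes, MRE11 rose alone and EXO1 fell in co-culture. MRE11, the nuclease that starts to trim broken ends (ENSG00000020922, chr11:94415578-94493908, minus strand), read 2.42, 1.97 and 2.35 CPM in the lone control and 8.42, 5.38 and 5.05 in the lone knockout. In co-culture it read 2.91, 2.98 and 2.20 CPM in the control and 1.94, 1.25 and 5.60 in the knockout. The lone groups stood well apart, with a log2 fold change of 1.49 (SE 0.452, adjusted p = 0.0134), and the co-cultured groups overlapped. Leaving out lone control replicate 2 (adjusted p = 0.051) or lone knockout replicate 1 (0.0603) ended this call. EXO1, the exonuclease of long-range resection (ENSG00000174371, chr1:241847967-241895148, plus strand), read 15.1, 15.7 and 12.9 CPM in the lone control, 11, 9.76 and 8.09 in the lone knockout, 17.4, 17.2 and 11 in the co-cultured control and 5.26, 4.41 and 7.58 in the co-cultured knockout. No knockout library reached its control group in either setting. The difference was -0.60 alone (adjusted p = 0.054) and -1.40 in co-culture (SE 0.249, adjusted p = 0.000448). NBN and RBBP8 were not called.

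The RecQ helicases BLM and WRN, which unwind recombination intermediates, and the BLM partner RMI1 were not called in any comparison. BLM (ENSG00000197299, chr15:90717327-90816165, plus strand) read 7.13, 6.04 and 2.35 CPM in the lone control, 5.88, 4.48 and 2.57 in the co-cultured control, 4.95, 4.03 and 2.98 in the lone knockout. Values of the co-cultured knockout were 1.25, 0.626 and 3.47 CPM. WRN (ENSG00000165392, chr8:31033801-31173769, plus strand) read 6.63, 5.48 and 2.79 CPM in the lone control, 5.40, 6.47 and 3.55 in the co-cultured control, 5.76, 6.92 and 6.08 in the lone knockout. The co-cultured knockout read 2.80, 1.70 and 5.22 CPM. In both genes co-cultured knockout replicate 2 was the lowest of the 12 libraries, and replicate 3 lay within the range of the controls.

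The Fanconi core complex gave the largest decrease of the 47 genes, in FANCE, which ties the core to FANCD2 (ENSG00000112039, chr6:35452356-35467103, plus strand). It read 30.6, 39.4 and 49.6 CPM in the lone control, 37.3, 33.6 and 36.8 in the co-cultured control, 7.15, 6.32 and 9.55 in the lone knockout. In co-cultured knockout cells it read 7.29, 8.17 and 6.72 CPM. The lowest control exceeded the highest knockout library more than 3-fold. The log2 fold change was -2.38 alone (SE 0.208, adjusted p = 9.79e-07) and -2.28 in co-culture (SE 0.206, adjusted p = 1.46e-06). FANCG, an assembly subunit of the core, fell from 148 ± 37.3 to 63.8 ± 12.5 CPM alone (-1.22, adjusted p = 0.000334). FANCA, its binding partner, fell from 66.2 ± 3.86 to 32.6 ± 3.12 CPM (-1.02, adjusted p = 2.81e-05), with 2302 bases of its exons shared with ZNF276 on the opposite strand. UBE2T, the ubiquitin-conjugating enzyme of the pathway, was called lower at -0.44 (adjusted p = 0.0157). That call was lost with library size only (adjusted p = 0.163) and with no filter (0.089), and the GC-corrected value was -0.93. FANCL, the ligase (ENSG00000115392, chr2:58159243-58241372, minus strand), went the other way, from 4.52, 5.54 and 3.99 CPM in the lone control to 8.97, 7.82 and 7.79 in the lone knockout. It read 6.53, 4.48 and 3.87 CPM in the co-cultured control and 6.47, 5.10 and 8.66 in the co-cultured knockout. The lone groups did not overlap and the log2 fold change was 0.81 (SE 0.263, adjusted p = 0.0187). The call ended without lone control replicate 3 (adjusted p = 0.0868), without lone knockout replicate 1 (0.0644) and after the GC correction (0.413). FANCB, FANCC and FANCM, the translocase that anchors the core, were not called alone.

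FANCD2, the protein that the core ubiquitinates (ENSG00000144554, chr3:10026414-10101930, plus strand), was not called in the lone comparison and fell in co-culture. With the GC correction it was called lower alone too. It read 21.6, 23.3 and 14.1 CPM in the lone control, 21.2, 19.2 and 15.4 in the lone knockout, 26.0, 16.9 and 14.4 in the co-cultured control and 7.03, 5.04 and 11.8 in the co-cultured knockout. The co-cultured knockout libraries were the 3 lowest of the 12. Its log2 fold change was -0.08 alone (SE 0.313, adjusted p = 0.848) and -1.27 in co-culture (SE 0.319, adjusted p = 0.00513). USP1, which removes that ubiquitin (ENSG00000162607, chr1:62436297-62451804, plus strand), read 14.1, 4.99 and 5.41 CPM in the lone control, 8.25, 7.92 and 5.67 in the co-cultured control, 13.4, 11.3 and 8.82 in the lone knockout. Values of the co-cultured knockout were 5.95, 2.65 and 11.2 CPM. Its groups overlapped, and neither USP1, FANCI nor the helicase BRIP1 was called in any comparison.

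Of the 6 genes of uracil and mismatch repair, including the strand-break sensor PARP1, 3 fell in the lone knockout and none rose. SMUG1, a uracil glycosylase (ENSG00000123415, chr12:54121277-54189008, minus strand), read 40.9, 48.1 and 58.9 CPM in the lone control, 52.2, 45.2 and 52.3 in the co-cultured control, 18.8, 26.2 and 26.9 in the lone knockout. The co-cultured knockout read 30.8, 34.8 and 26.5 CPM. All knockout libraries lay below all controls, with a log2 fold change of -1.04 alone (SE 0.182, adjusted p = 0.000348) and -0.70 in co-culture (SE 0.179, adjusted p = 0.00576). PARP1 fell from 385 ± 21.2 to 188 ± 8.22 CPM alone (-1.04, adjusted p = 9.18e-06) and from 390 ± 28.5 to 183 ± 4.03 in co-culture (-1.09, adjusted p = 6.52e-06). UNG, the main uracil glycosylase, was called lower by 0.46 alone (log2 fold change -0.46, adjusted p = 0.00588) and at -0.86 in co-culture (adjusted p = 6.44e-05). TDG, which excises thymine and uracil opposite guanine, was not called. MSH6, which recognises mispairs (ENSG00000116062, chr2:47695530-47810101, plus strand), read 42.7, 41.6 and 26.9 CPM in the lone control, 41.5, 42.3 and 37.7 in the co-cultured control, 68.9, 56.2 and 44.5 in the lone knockout. In co-cultured knockout cells it read 23.1, 19.0 and 42.9 CPM. The lone knockout was the highest group, without overlap with the lone control, yet the difference was not called (0.61, SE 0.277, adjusted p = 0.0761). FBXO11 on the opposite strand shares 1785 bases of its exons.

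H2AX, the histone variant phosphorylated beside breaks (ENSG00000188486, chr11:119093854-119095467, minus strand), read 404, 520 and 578 CPM in the lone control, 307, 363 and 446 in the co-cultured control, 161, 224 and 259 in the lone knockout. Values of the co-cultured knockout were 189, 229 and 122 CPM. Every knockout value was below every control value. The log2 fold change was -1.22 alone (SE 0.247, adjusted p = 0.00104) and -1.05 in co-culture (SE 0.246, adjusted p = 0.00335). With 66.8% GC, H2AX had the highest transcript GC content of the 47, and after the GC correction the lone difference was -0.26 (adjusted p = 0.0118). The counts are of RNA and carry nothing on phosphorylation.

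**Figure D2:**
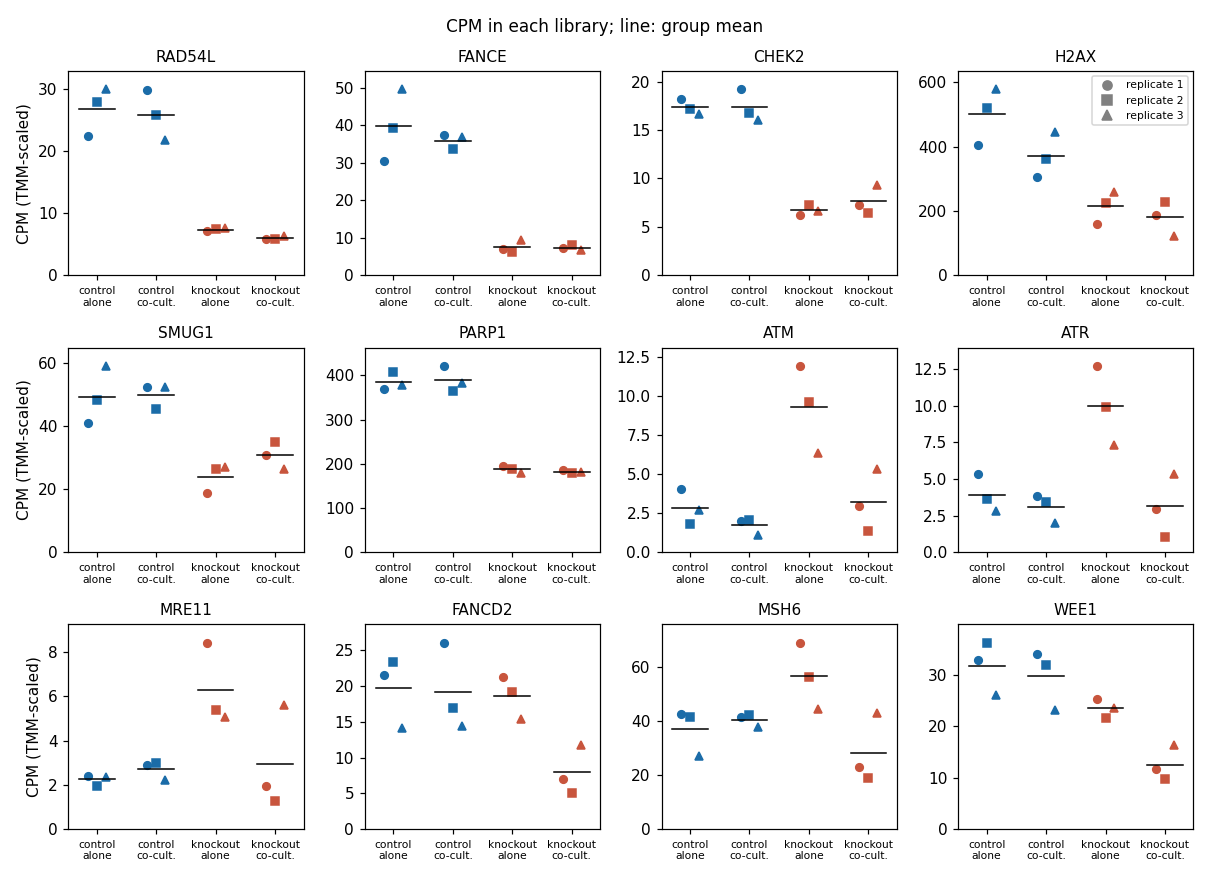
CPM (TMM-scaled) of 12 of the genes in each library, with marker shape for the replicate, blue for control and red for knockout, and a line at the group mean. RAD54L, FANCE, CHEK2, H2AX, SMUG1 and PARP1 are low in all 6 knockout libraries, while ATM, ATR and MRE11 are high in the 3 lone knockout libraries and spread widely in the co-cultured knockout.

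By the plainer measure of values that do not overlap between groups, 25 of the 47 genes stood apart in the lone comparison, 8 higher and 17 lower. Over all genes tested the same held for 65.2%, with 33.8% higher and 31.5% lower.

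In the co-cultured against the lone knockout, 6 genes were called, all lower: ATR, TOPBP1, ATM, FANCD2, MSH6 and WEE1. Over all genes 11.4% were called in this comparison, 5.97% higher and 5.40% lower, against 12.8% of the 47 lower. The median log2 fold change of the 47 was -0.74 against 0.01 over all genes, and 37 of them had a negative value. It was -0.02 for the 11 genes above the median GC content of tested genes and -0.895 for the 36 below it. ATR fell from 9.97 ± 2.7 to 3.13 ± 2.16 CPM (-1.68, SE 0.469, adjusted p = 0.0388) and ATM from 9.29 ± 2.82 to 3.23 ± 1.99 CPM (-1.53, SE 0.446, adjusted p = 0.0444). These kinases were thus called higher in the lone knockout and lower in its co-culture, in comparisons that share the lone knockout libraries. TOPBP1, the activator of ATR, fell from 12.5 ± 4.34 to 4.06 ± 3 CPM (-1.63, adjusted p = 0.044), and WEE1 from 23.5 ± 1.90 to 12.6 ± 3.38 (-0.90, adjusted p = 0.0202). FANCD2 changed by -1.23 (adjusted p = 0.0292) and MSH6 by -0.998 (adjusted p = 0.0387). The values of the 6 genes did not overlap between the 2 groups, as for 17 of the 47 genes (1 higher, 16 lower) and 31.5% of all genes (16.7% higher, 14.9% lower).

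None of these 6 calls held in every alternative, and the number depended on single libraries. It was 0 without lone knockout replicate 1 or 2 (3.5% and 3.78% of all genes called), and 0 without co-cultured knockout replicate 1 or 2 (3.13% and 4.78%). It was 2 without lone knockout replicate 3 (5.91% of all genes) and 2 without lone control replicate 2 (7.64%). It was 2, 2 and 3 without co-cultured control replicates 1, 2 and 3 (8.96%, 7.72% and 9.46%). Without co-cultured knockout replicate 3 it was 26, all lower, where 33.4% of all genes were called (12.2% higher, 21.2% lower). ATR then stood at -2.35 (adjusted p = 0.00102), BRCA2 at -3.19 (0.000375), TOPBP1 at -2.41 (0.000605) and MRE11 at -1.995 (0.000411). Against the lone knockout mean, the median log2 ratio of the 47 genes was -0.87 in co-cultured knockout replicate 1, -1.19 in replicate 2 and -0.17 in replicate 3. The number of genes below that mean was 38, 37 and 34.

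**Figure D3:**
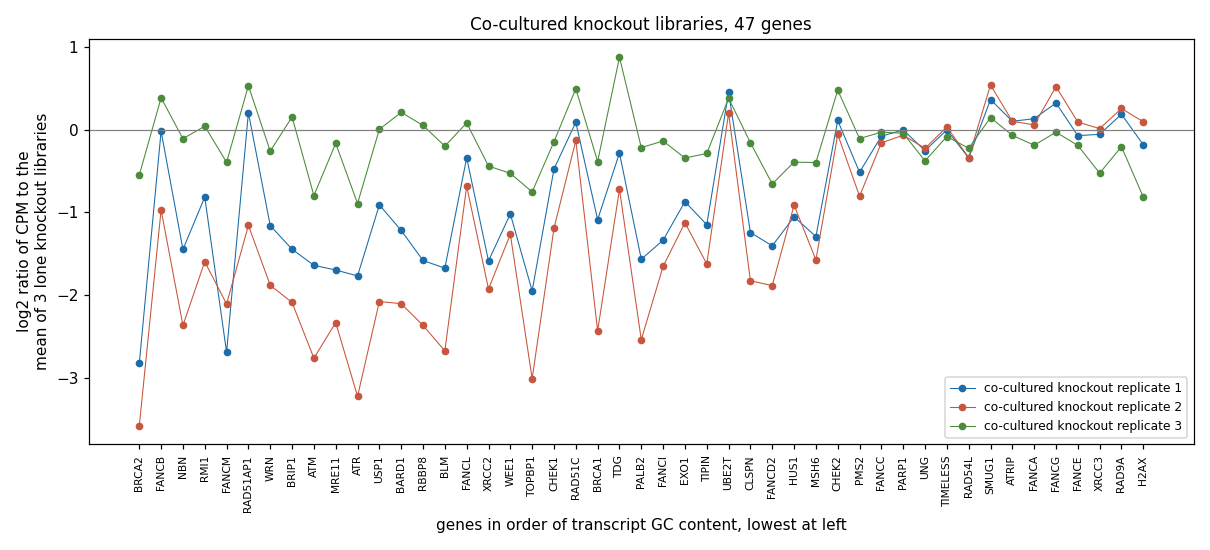
Log2 ratio of CPM in each co-cultured knockout library to the average of lone knockout replicates 1 to 3, for the 47 genes in order of transcript GC content. Replicates 1 and 2 lie far below 0 for most genes on the low-GC side and near 0 on the high-GC side, whereas replicate 3 has a median of -0.17 and runs from -0.89 for ATR to 0.87 for TDG.

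Markers of cycling cells also differed between the groups. Of 15 such markers, 9 were called between the co-cultured and the lone knockout, 8 of them lower (among them MKI67 at -1.78 and TOP2A at -1.91) and CCNE1 higher at 0.62. In the lone knockout against its control 5 were called, 1 higher and 4 lower, and in co-culture 9, 1 higher and 8 lower. Over all genes 11.4%, 56.6% and 49.4% were called in these comparisons, in that order. In the interaction 4 of the 15 were called, all lower, against 1.80% of all genes. These calls rest on all 12 libraries. The markers were not refitted without co-cultured knockout replicate 3 or with the GC correction. Their summed level was 1780 to 1940 CPM in the lone control, 1700 to 1850 in the co-cultured control, 1360 to 1420 in the lone knockout and 966 to 1120 in the co-cultured knockout, and none was at 0. Their part in the differences of the 47 genes was not tested. In bulk RNA, fewer cells of a kind and less RNA per cell cannot be told apart.

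Between the knockout and control groups of the co-culture, 18 genes were called and all 18 were lower. Over all genes 49.4% were called, 24.1% higher and 25.3% lower, against 38.3% of the 47 lower and none higher. The median log2 fold change of the 47 was -0.67 against -0.02 over all genes. Of the 18, 12 were also lower in the lone knockout: FANCE, RAD54L, CHEK1, CHEK2, TIMELESS, PARP1, H2AX, FANCA, XRCC3, UNG, SMUG1 and FANCG. They were 85.7% of the genes lower alone and 66.7% of those lower in co-culture, where over all genes the shares were 71.6% and 81.0%. The other 6 were called in co-culture and not alone. Besides EXO1 and FANCD2 these were CLSPN, the claspin adaptor through which ATR reaches CHEK1 (15.5 ± 2.49 to 6.30 ± 3.78 CPM, -1.30, adjusted p = 0.013), WEE1 (29.7 ± 5.69 to 12.6 ± 3.38 CPM, -1.24, adjusted p = 0.000376), the mismatch endonuclease PMS2 (-0.56, adjusted p = 0.0385) and FANCC (-0.39, adjusted p = 0.0312). Within the ATR arm, CHEK1 fell from 20.5 ± 3.45 to 7.29 ± 2.49 CPM (-1.49, SE 0.241, adjusted p = 0.000215), and ATR itself was at 0.02 (SE 0.474, adjusted p = 0.98). Without co-cultured knockout replicate 3, CHEK1 was at -1.74 and ATR at -0.65 (adjusted p = 0.217), and over the alternatives ATR ran from -0.65 to 0.42.

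Of these 18 calls, 13 held in all 20 refits of the counts, though FANCA, UNG and SMUG1 among them changed by less than 2-fold: CHEK1, TIMELESS, WEE1, CHEK2, RAD54L, EXO1, FANCA, FANCE, FANCD2, UNG, SMUG1, PARP1 and H2AX. FANCC and PMS2 had been called narrowly and lost the call in 9 and 10 alternatives, among them each that left out co-cultured control replicate 1 (adjusted p = 0.11 and 0.129) or 2 (0.0709 and 0.118) or co-cultured knockout replicate 1 (0.0653 and 0.0981) or 2 (0.0638 and 0.111). PMS2 also lost it without lone control replicate 2 (0.0507), and CLSPN without co-cultured knockout replicate 1 (0.0534). Leaving out co-cultured knockout replicate 3 gave 32 genes, all lower, with 52.2% of all genes called (22.8% higher, 29.5% lower) and the median of all genes at -0.13. Values did not overlap for 18 of the 47, all lower, against 55.4% of all genes (26.9% higher, 28.5% lower).

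Of the genes lower in co-culture and not alone, 5 had a RefSeq promoter window, and each window held a word of the E2F kind. This class rests on the threshold, and none of its genes was called in the interaction. Alone, FANCC was at -0.33 (adjusted p = 0.0617) and EXO1 at -0.60 (0.054). CLSPN was at -0.36 (0.43), FANCD2 at -0.08 (0.848) and PMS2 at 0.11 (0.665). E2F factors switch on genes for S phase. A window was the 250 bases before and 50 after the annotated start, on GRCh38.p14, and 41 of the 47 genes had one. The words searched, on both strands, were TTTCCCGC, TTTGGCGC, TTTCGCGC and TTTGCCGC, and none of them contains another motif searched. The stretches are shown because they are the 5 that share this feature. They are given 5′ to 3′ on the gene's strand, and the capitals mark the word or its reverse complement.

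CLSPN (chr1:35769949-35770048, minus strand): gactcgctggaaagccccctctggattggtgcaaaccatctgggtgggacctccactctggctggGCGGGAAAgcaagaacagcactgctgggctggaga
EXO1 (chr1:241848134-241848233, plus strand): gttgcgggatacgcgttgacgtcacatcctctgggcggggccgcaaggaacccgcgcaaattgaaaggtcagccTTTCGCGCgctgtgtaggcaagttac
FANCC (chr9:95317706-95317805, minus strand): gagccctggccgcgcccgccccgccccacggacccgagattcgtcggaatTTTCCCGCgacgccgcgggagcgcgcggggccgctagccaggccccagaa
FANCD2 (chr3:10026367-10026466, plus strand): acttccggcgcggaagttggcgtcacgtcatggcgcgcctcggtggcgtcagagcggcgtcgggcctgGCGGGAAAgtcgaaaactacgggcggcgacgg
PMS2 (chr7:6009100-6009199, minus strand): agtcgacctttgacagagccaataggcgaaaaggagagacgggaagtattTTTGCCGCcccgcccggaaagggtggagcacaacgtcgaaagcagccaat

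One of these words occurred in 9 of the 41 windows of the set (22.0%), in 5.13% of the windows of genes tested and in 3.33% of 27305 windows in all. The other 4 genes with a word were FANCA, TOPBP1, XRCC2 and MSH6. Of 11 genes lower both alone and in co-culture with a window, 1 held a word (FANCA). The classes were defined by the fold changes, so this is a description without a test, and a matching word is not evidence of binding. Between the knockout and control groups of the co-culture, 6 of the 9 genes with a word were lower, as were 10 of the 32 with a window and no word. Among tested genes with a word the share was 29.9%, and among those with any window 25.4%. The median log2 fold changes were -0.91 for the 9 genes, -0.48 for the 32 and -0.24 for all tested genes with a word. In the lone comparison 1 of the 9 was lower, against 12 of the 32, 28.9% of tested genes with a word and 29% of those with any window. The class of genes lower in co-culture and not alone depended on GC content: with the GC correction 5 of its 6 genes, all but PMS2, were lower alone too.

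The CCAAT box, the word CCAAT on either strand that the factor NF-Y reads in many cell cycle promoters, was found in 25 of the 41 windows (61.0%), against 36.2% of windows of tested genes and 35.7% of all windows. It was in 8 of 11 windows of genes lower both alone and in co-culture (72.7%) and in 11 of 19 of genes called in neither (57.9%). The counts were 2 of 2 for genes lower alone only, 2 of 5 for those lower in co-culture only and 2 of 4 for those higher alone. Windows of 4 of these genes are shown, 3 of which hold a pair of boxes in the stretch, again with the box or its reverse complement in capitals.

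CHEK2 (chr22:28741811-28741910, minus strand): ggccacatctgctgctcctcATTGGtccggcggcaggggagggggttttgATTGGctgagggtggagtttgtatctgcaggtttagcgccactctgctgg
RAD54L (chr1:46247618-46247717, plus strand): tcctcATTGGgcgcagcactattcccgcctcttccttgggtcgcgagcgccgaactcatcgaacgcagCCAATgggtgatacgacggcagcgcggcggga
TIMELESS (chr12:56449430-56449529, minus strand): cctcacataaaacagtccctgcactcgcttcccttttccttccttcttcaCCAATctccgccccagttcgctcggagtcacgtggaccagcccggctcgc
XRCC3 (chr14:103715435-103715534, minus strand): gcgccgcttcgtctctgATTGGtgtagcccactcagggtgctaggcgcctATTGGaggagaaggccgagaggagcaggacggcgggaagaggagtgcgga

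The cell cycle word TTTGAA on either strand was in 12.2% of the 41 windows and 9.47% of windows of tested genes, and the ETS word CCGGAAGT in 9.76% and 8.22%. The absence of a word says only that those letters are not in the window.

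In the co-cultured against the lone control, none of the 47 genes was called by edgeR, none had an unadjusted p-value under 0.05, and DESeq2 called none. Of all genes, 0% were called, with 540 at an unadjusted p-value under 0.05. The values of the 47 genes ran from -0.74 for ATM to 0.43 for TDG, and no gene had values that did not overlap, against 7.39% of all genes (4.48% higher, 2.90% lower). The interaction, in which the control cells' change on co-culture is subtracted from that of the knockout cells, had no call among the 47 either, where 1.80% of all genes were called (1.51% higher, 0.286% lower). It had 11 of the 47 at an unadjusted p-value under 0.05, all negative (23.4%, against 18.7% of all genes), and DESeq2 called 1, against 4.95% of all genes. The median was -0.67 against 0.01 over all genes, with TOPBP1 at -1.66 (adjusted p = 0.219), XRCC2 at -1.44 (0.206), FANCD2 at -1.19 (0.198) and HUS1 at -1.18 (0.148). Without co-cultured knockout replicate 3 it had 23 calls among the 47, all lower, with 21.3% of all genes called (7.05% higher, 14.2% lower). With all 12 libraries the interaction calls thus depended on the settings, since DESeq2 and the fits with GC offsets or with no filter made some.

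The direction of change followed transcript GC content within the set. The 47 genes had 36.3% to 66.8% GC with a median of 42.9%, against 50.4% for tested genes. Of the 11 genes above that level, 10 were lower in the lone knockout and none higher, and ATRIP was the exception. Of the 36 below it, 5 were higher and 4 lower. The rank correlation of log2 fold change with GC content over the 47 genes was -0.672 in the lone comparison, 0.566 between the co-cultured and lone knockout and -0.433 in co-culture, and over all genes it was -0.396, 0.446 and -0.108. These points share the same libraries and are given as a description. After a correction that removes each library's trend on GC content, the rank correlations of the 47 were -0.321, 0.205 and -0.313.

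With that correction, 25 genes were called in the lone comparison, 4 higher and 21 lower, and 16 of the 19 calls were shared. Over all genes 62.4% were called (31.3% higher, 31.1% lower), and the median of the 47 was -0.30. ATM (1.08), HUS1 (1.05), MRE11 (0.82) and ATR (0.74) were still higher. RAD9A, XRCC3 and FANCL were no longer called, and genes of low GC content such as CLSPN (-0.78), WEE1 (-0.999), EXO1 (-1.10) and BLM (-0.93) were called lower. Between the co-cultured and the lone knockout, 21 were called, 19 lower with RAD51C (0.57) and UBE2T (0.68) higher, against 29.6% of all genes (10.9% higher, 18.7% lower). The median there was -0.28 for the 11 genes of higher GC content and -0.50 for the 36 others, against -0.09 over all genes. In co-culture 29 were called, 28 lower and ATM higher at 0.80, against 62.6% of all genes (28.6% higher, 34.0% lower). In the interaction 5 were called lower, TOPBP1, XRCC2, UNG, MSH6 and H2AX, against 8.49% of all genes (3.59% higher, 4.90% lower), and in the co-cultured against the lone control none. In the lone comparison 5 of the 9 genes with an E2F word were then lower (1 without the correction). So were 14 of the 32 others with a window, 36.8% of tested genes with a word and 32.1% of those with any window. Of the 6 genes called in co-culture and not alone, CLSPN, WEE1, EXO1, FANCC (-0.65) and FANCD2 (-0.52, adjusted p = 0.0286) were called lower alone as well. All 9 genes with an E2F word were lower in co-culture, as were 15 of the 32 others with a window, 43.3% of tested genes with a word and 35.3% of those with any window. The correction also takes out any true difference that follows GC content, so neither setting was taken as the right one.

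**Figure D4:**
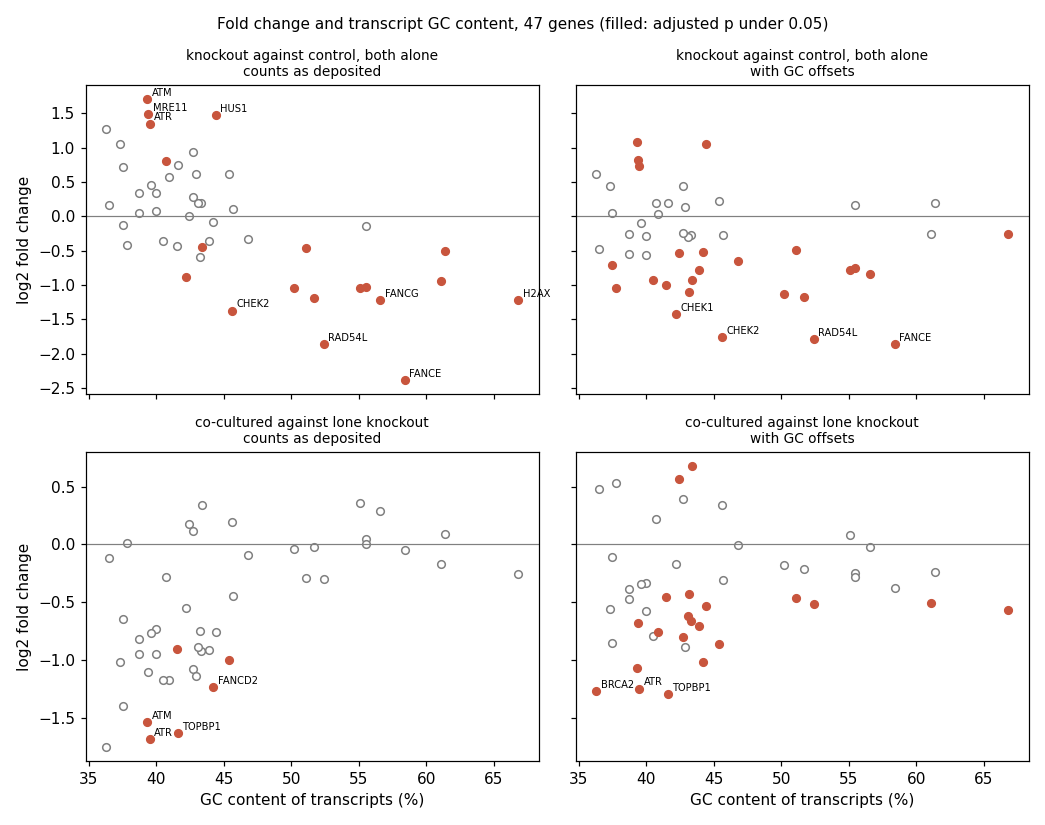
Log2 fold change against transcript GC content (%) for the 47 genes, in the lone knockout against the lone control (top) and the co-cultured against the lone knockout (bottom), from counts as deposited (left) and with GC offsets (right). Filled points have an adjusted p-value under 0.05. The slope of the points at left, downward at top and upward at bottom, is flatter at right, and 4 genes remain called higher in the upper right panel.

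Other genes of the same pathways were taken from lists of 90 genes, of which 87 were tested. In the lone knockout 44 were called, 20 higher and 24 lower, in the co-cultured against the lone knockout 6, all lower, and in co-culture 29, 8 higher and 21 lower. These were 50.6%, 6.9% and 33.3% of the 87, each below the share of all genes (56.6%, 11.4% and 49.4%). None was called in the co-cultured against the lone control or in the interaction by edgeR, where 1 and 9 had an unadjusted p-value under 0.05 (9 were 10.3%, against 18.7% of all genes), and DESeq2 called none in either. RECQL4, a RecQ helicase, had the largest decrease in the lone knockout, from 357 to 75.1 CPM (-2.25, adjusted p = 4.61e-06). FAAP20, a Fanconi core factor, was at -1.50 (adjusted p = 0.000379), MDC1, the reader of phosphorylated H2AX (701 bases of its exons are shared with MDC1-AS1 on the other strand), at -1.32 (6.56e-06) and the base excision glycosylase NTHL1 at -1.14 (0.00235). The largest called increases of each list were in the resolvase GEN1 (1.70, adjusted p = 0.00977), the polymerase subunit REV3L (1.69, 0.0076), the mismatch sensor MSH3 (1.67, 0.00379) and the fork remodeller ZRANB3 (0.85, 0.0316). The GEN1 call ended without lone control replicate 3 (adjusted p = 0.051). That of ZRANB3 ended without lone control replicate 2 (0.0629) or 3 (0.154) or lone knockout replicate 1 (0.132) or 3 (0.0522). The ZRANB3 call also ended with no filter (0.0501) and after the GC correction (log2 fold change 0.296, adjusted p = 0.347).

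RAD50, which binds MRE11 and shares 7784 exon bases with ENSG00000283782 on its own strand, was higher alone (1.48, adjusted p = 0.0145) and lower in co-culture against alone (-1.60, 0.0385). For MRE11 these values were 1.49 and -1.11, of which the second was not called (adjusted p = 0.111) and came from overlapping groups. The microhomology polymerase POLQ (-1.76, adjusted p = 0.0395), the glycosylase NEIL3 (-1.53, 0.0322) and the ubiquitin ligase RFWD3 (-0.70, 0.043) also fell from the lone to the co-cultured knockout. None of these 4 calls held without lone knockout replicate 1 or 2, or without co-cultured knockout replicate 1 or 2, where their adjusted p-values were 0.0876 to 0.171. They were also lost without lone control replicate 2 or co-cultured control replicate 2 (0.0505 to 0.0621), and that of POLQ without co-cultured control replicate 1 (0.0569) or 3 (0.0557) and, with RFWD3, without lone knockout replicate 3 (0.0605 and 0.068).

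The 20 genes called in no comparison were ATRIP, TIPIN, BRCA1, BARD1, PALB2, BRCA2, RAD51C, XRCC2, RAD51AP1, NBN, RBBP8, BLM, WRN, RMI1, FANCB, FANCM, FANCI, USP1, BRIP1 and TDG. Their log2 fold changes ran from -0.42 to 1.27 in the lone comparison, from -1.75 to 0.17 between the co-cultured and lone knockout, and from -1.27 to 0.59 in co-culture. A missing call does not show that a gene was unchanged: for FANCM, at 1.02 ± 0.378 CPM in the lone control, a log2 fold change of 0.72 had an SE of 0.500.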

How the data were processed

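RNA sequencing counts of 12 A549 libraries, 3 in each of 4 groups, were analysed as whole-number counts per gene, as the authors deposited them, for 61541 genes. Per the submitters' processing notes, FastQC, STAR 2.7.9a, featureCounts, R 4.2.1 and DESeq2 1.36.0 were used with GRCh38, also named hg38. The role of each tool, the annotation and the strand setting are not given in the sources used here. Library totals of 14921371 to 35723762 counts set the precision, and counting intervals would cover counting error only. No 2 replicates were alike enough to be 1 library deposited again.

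Groups were read from the labels. In R 4.3.3, edgeR 4.0.16 kept 16768 genes by filterByExpr, scaled libraries by TMM, fitted 4 group means to all 12 libraries (biological coefficient of variation 22.1%) and tested 5 contrasts by the robust quasi-likelihood F-test, with Benjamini-Hochberg adjustment over all genes tested. The SE is the absolute log2 fold change divided by the square root of F. Tests were tried on simulated counts. Alternatives were DESeq2 1.42.0, library size only, no filter, 2 groups only, a replicate block, GC offsets (a lowess of span 0.3 of each library's log2 CPM deviation on transcript GC, prior count 2), both together, leaving out each library, and a fold of at least 2. Leaving out co-cultured knockout replicates 2 and 3 together was added after the data were seen.

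The 47 genes, the lists and the markers were chosen with earlier results of these data known. Named with the value in every library were the genes with the highest and lowest log2 fold change of each of 9 role lists in the lone comparison, and any gene called in opposite directions in 2 comparisons or in the interaction. Other called genes were named with means or fold changes. Of the other pathway genes, the called gene with the highest and the lowest log2 fold change of each list was named, in the lone comparison and in the co-cultured against the lone knockout. Positions, lengths, GC content and exon overlaps came from GENCODE 29 (GRCh38), in which 58366 identifiers were found, and promoter windows from RefSeq (GRCh38.p14). Some results are not reported here.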

Additional observations from a re-analysis of the deposited data

How the results depend on the processing

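In the lone comparison the number of calls among the 47 genes stayed within 13 to 26 in all alternatives, from 19. The refits of the counts called 26.4% to 62.4% of all genes there, from 56.6%. The 6 calls between the co-cultured and the lone knockout (11.4% of all genes) became 1 with library size only (8.47%), 18 with no filter (8.75% of 38159 genes) and 0 with these 2 groups only (4.22%). They became 21 with GC offsets (29.6%), 16 with DESeq2 (20%) and 0 to 26 when 1 library was left out (3.13% to 33.4%). The fit without co-cultured knockout replicates 2 and 3 was added after the data were seen and leaves 1 library in that group. Its counts among the 47 genes are therefore not given. Its count for the other pathway genes, in the co-cultured against the lone knockout, is listed below. That count rests on 1 co-cultured knockout library, and no conclusion is drawn from it. The 18 calls in co-culture (49.4% of all genes) became 11 with a fold of at least 2 and 29 with GC offsets (62.6%). They became 29 with GC offsets and the replicate block (60.5%), and 15 to 32 without 1 library (41.7% to 52.2%). No share of all genes is given for a fold of at least 2, here or for the other pathway genes below. The interaction, at 0 (1.80% of all genes), had 4 with no filter (3.52%), 5 with GC offsets (8.49%) and 1 with DESeq2 (4.95%). It had 0 to 23 without 1 library (0.695% to 21.3%), and it could not be fitted on 2 groups. Of the other pathway genes, the 44 calls alone became 25 with a fold of at least 2. Their 6 between the co-cultured and lone knockout became 0 with library size only, 19 with no filter, 0 with 2 groups only, 27 with GC offsets, 12 without both replicates, 15 with DESeq2 and 0 to 36 without 1 library. Their 29 in co-culture became 10 with a fold of at least 2 and 50 with GC offsets, and their 0 in the interaction became 4 with no filter, 5 with GC offsets and 0 to 20 without 1 library. The cause was not tested. With GC offsets the log2 fold change of 13 of the 47 genes changed sign in the lone comparison, 1 of them called before (RAD9A) and 1 after (RAD51C, from 0.00 to -0.53). The 13 included RAD9A (0.187, and 0.187 with the replicate block), BARD1 (-0.562 and -0.555), WRN (-0.253 and -0.25) and USP1 (-0.095 and -0.053). The direction also reversed for FANCD2 with library size only (0.066), a scaling that moved the median of all genes to 0.244 alone and -0.107 in the interaction. Leaving out 1 library gave BARD1 from -0.214 to 0.21 (-0.059 without lone control replicate 3) and FANCD2 from -0.295 to 0.057 (0.019 without lone knockout replicate 3). Same-numbered replicates had deviations that correlated from -0.603 to 0.491. Outside the co-cultured knockout, replicates 1 correlated from 0.189 to 0.491, replicates 2 from -0.0735 to -0.0242 and replicates 3 from 0.308 to 0.412. With the co-cultured knockout, replicates 1 correlated from -0.247 to -0.17, replicates 2 from -0.215 to 0.138 and replicates 3 from -0.603 to -0.523. Replicates of different number in different groups correlated from -0.619 to 0.639. At the top were co-cultured knockout replicate 3 with replicates 1 of the lone control (0.639) and the lone knockout (0.613). The labels do not say what a shared number stands for, and the replicate block goes by that number. With the replicate block the calls went from 19 to 19, 6 to 1 and 18 to 16 among the 47 genes, and from 44 to 40, 6 to 2 and 29 to 27 among the other pathway genes. Over all genes 54.1%, 6.44% and 46.4% were then called. With the replicate block and GC offsets together the co-cultured against lone knockout calls were 18 and 16, the interaction 2 and 3, and the other pathway genes in co-culture 49. The shares of all genes in these 3 comparisons were 25.1%, 5.24% and 60.5%. Limits by depth were not compared.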
